A study of Mus musculus with 6 samples.

Results

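Red blood cells carry oxygen in haemoglobin, a protein of paired alpha and beta globin chains, each of which holds a haem group with an iron atom. Haem is made in a chain of enzyme steps that opens with 5-aminolevulinate synthase, whose erythroid form is the product of Alas2, and closes with ferrochelatase, the product of Fech, which inserts the iron. Mature mammalian red cells have no nucleus and make no new mRNA, so globin mRNA in blood sits mainly in reticulocytes, the youngest circulating red cells, and RNA taken from a whole organ includes that of the blood it holds. The 8 genes described here were chosen by name. They are the alpha globins Hba-a1 and Hba-a2, the beta globins Hbb-b1 and Hbb-b2, the haem synthesis genes Alas2 and Fech, Slc4a1, which encodes the band 3 anion exchanger of the red cell membrane, and Bpgm, which encodes the enzyme that makes 2,3-bisphosphoglycerate, a compound that lowers the oxygen affinity of haemoglobin. Each was read by 1 probe in 1 spot, which makes 8 of the 55681 probes on the array, and all 8 were among the 28032 probes that could be tested.

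Hearts of 6 male C57BL/6 mice were profiled, 3 from sham and 3 from tail-suspended animals. Tail-suspension lifts the hindlimbs off the floor by the tail and is used to model weightlessness, and it lasted 28 days here. Sham mice were not suspended and were otherwise kept alike. The labels give an age of 10 weeks when suspension began and also 11 weeks as the age of every animal, and these were not reconciled. The RNA came from cardiac muscle without sorting of cells, so fewer red cells and less RNA per red cell cannot be told apart in any value below. All 8 cardiomyocyte markers listed for a check of the tissue were well above background on the 6 arrays.

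Levels are given as log2 of the processed intensity of a probe relative to the 75th percentile of its array, so that a difference of 1 is a doubling, and levels of different probes are not compared. The groups were compared with limma over all tested probes, p-values were adjusted by the Benjamini-Hochberg method, a gene was called under 0.05, and every adjusted p below is from that fit unless another is named. With 3 arrays against 3, the exact permutation test cannot give a two-sided p under 0.1. The 6 arrays shared 1 slide and 1 scan. In the first row of the slide were the sham arrays and the array of tail-suspension replicate 1, and in the second row tail-suspension replicates 2 and 3. Between 50.9% and 53.4% of the probes on an array were well above background, and no spot was saturated. The median log2 fold change of all tested probes was −0.0049.

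Of the 8 genes, Fech fell after tail-suspension, by 0.47 on the log2 scale, and the other 7 did not pass the adjusted test. The 4 globins and Alas2 had larger differences, with log2 fold changes between −1.72 and −1.04 and adjusted p between 0.0506 and 0.0619, and their levels varied widely between the 3 tail-suspended animals. In 7 of the 8 genes each of the 3 tail-suspended hearts read below all 3 sham hearts, where 21.9% of all tested probes did so. The fold change was −1 or less on the log2 scale in 5 of the 8, compared with 1.95% of the tested probes. At the adjusted threshold 1 of the 8 was thus lower and none was higher, at an unadjusted limma p under 0.05 either. Across all tested probes 9.57% were called lower and 10.8% higher, so this count is close to the background. Of the 8 genes, 7 had an unadjusted p under 0.05 in limma with a lower level, against 18.8% of tested probes. The median log2 fold change of the 8 was −1.27, while that over all 14156 tested genes was −0.025.

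**Figure D1:**
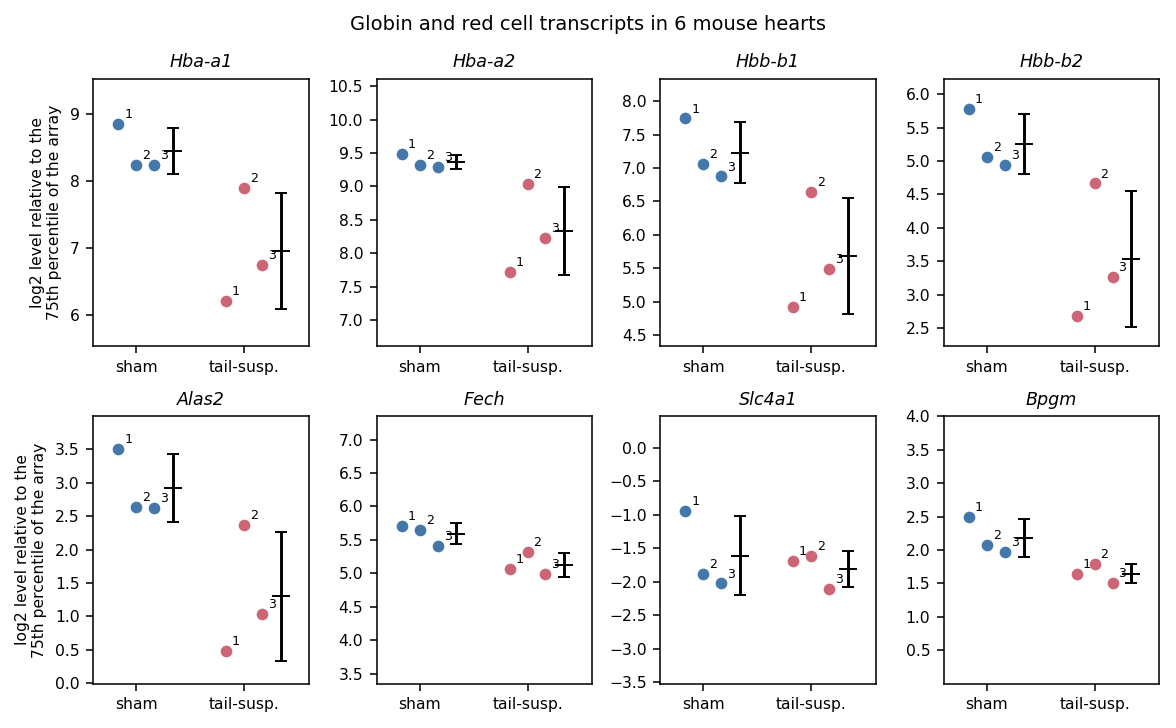
Levels of the 8 red cell genes on each array, as log2 relative to the 75th percentile of the array. Blue points are sham and red points tail-suspension arrays, numbered by replicate, black bars give the mean ± SD of 3 arrays, and every panel spans 4 log2 units so that distances can be compared. In all 8 panels sham replicate 1 was the highest sham array and tail-suspension replicate 2 the highest tail-suspension array, and in 7 panels the groups did not overlap.

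The alpha chain genes Hba-a1 and Hba-a2 are near-identical copies on chromosome 11, and the array design lists transcripts of both genes for either probe, so their signals cannot be assigned to a single copy. The Hba-a1 probe lay at chr11:32183955-32184014 and the Hba-a2 probe at chr11:32197245-32197304, both on the plus strand of mm9, the build of the array files. They start at bases 161 and 497 of their transcripts and are different sequences. The level of Hba-a1 was 8.86, 8.25 and 8.25 in sham replicates 1, 2 and 3 and 6.21, 7.90 and 6.74 in tail-suspension replicates 1, 2 and 3. All tail-suspension values lay below the sham values, but replicate 2 came close to the lowest sham array. The log2 fold change was −1.50 (SE 0.43, 95% interval −2.52 to −0.49, n = 3 per group), a 2.83-fold lower mean, with an adjusted p of 0.0506 by limma and an exact permutation p of 0.1. Hba-a2 read 9.49, 9.33 and 9.30 in sham hearts and 7.73, 9.04 and 8.23 in tail-suspended hearts. The sham arrays were tightly grouped here, with an SD of 0.105, and the tail-suspension arrays were again spread below them. Its log2 fold change was −1.04 (SE 0.31, 95% interval −1.78 to −0.30) with an adjusted p of 0.0581.

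The beta chain probes carry gene names that differ from those of the strain. C57BL/6 mice carry the beta haplotype whose adult genes are named Hbb-bs and Hbb-bt, while Hbb-b1 and Hbb-b2 are the names of another haplotype. In the RefSeq gene table the transcript listed for the Hbb-b1 probe belongs to Hbb-bt. Of the 4 RefSeq transcripts listed for the Hbb-b2 probe only 1 could be matched, and it belongs to Hbb-b2. The Hbb-b1 probe lay at chr7:110961105-110961164 on the minus strand of mm9, and the array design gives no genome position for the Hbb-b2 probe. These 2 sequences are shown, 5′ to 3′, because near-identical gene copies decide what a globin probe measures. The alpha sequence belongs to listed transcripts of both alpha genes. For the beta sequence, the 1 matched transcript is of a gene named from a haplotype other than that of the mice. Which beta transcripts of these mice it binds was not tested.
Hba-a1 probe: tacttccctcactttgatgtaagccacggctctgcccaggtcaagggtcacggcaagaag
Hbb-b2 probe: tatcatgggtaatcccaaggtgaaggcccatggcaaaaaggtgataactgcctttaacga

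Hbb-b1 gave levels of 7.74, 7.06 and 6.87 in sham and 4.93, 6.64 and 5.49 in tail-suspended hearts. The groups did not overlap, with replicate 2 of the tail-suspended hearts nearest to the sham range. The log2 fold change was −1.54 (SE 0.45, 95% interval −2.61 to −0.48), a 2.91-fold lower mean, with an adjusted p of 0.0536. Hbb-b2 gave 5.78, 5.06 and 4.95 in sham and 2.68, 4.67 and 3.26 in tail-suspended hearts. This was the largest difference between means among the 8 genes and also the widest spread among tail-suspended animals, whose SD was 1.02 against 0.451 in sham. Its log2 fold change was −1.72 (SE 0.50, 95% interval −2.93 to −0.52), with an adjusted p of 0.0553. The 4 globin genes thus lay just outside the adjusted threshold, between 0.0506 and 0.0581, with a median log2 fold change of −1.52.

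A probe for the strain's own beta globin gene was on the array under the name Beta-s, which RefSeq lists as a synonym of Hbb-bs. It is not among the 8 genes. The 46 bases of this probe that fall within the RefSeq promoter window of Hbb-bs matched it at all 46 positions, whereas 38 of 45 positions (84.4%) matched at the start of Hbb-bt. Hbb-bs read 4.94, 4.33 and 4.12 in sham and 1.87, 3.81 and 2.31 in tail-suspended hearts. The groups did not overlap, and the order of the arrays was that of Hbb-b1 and Hbb-b2. Hbb-bs fell by 1.80 on the log2 scale (SE 0.50), past the threshold with an adjusted p of 0.0476. This call was lost when any array other than tail-suspension replicate 2 was left out, and the adjusted p over the 6 fits that left out an array ran from 0.00674 to 0.132. Among the other globins, myoglobin (Mb), the oxygen-binding protein of muscle cells, had a log2 fold change of −0.12 (SE 0.09, adjusted p 0.363) with overlapping groups, and cytoglobin (Cygb) one of −0.24 (SE 0.15, adjusted p 0.284). On none of the arrays did the embryonic globin genes Hba-x and Hbb-y, or Hbb-bh2, reach a signal well above background. Hbb-bh1, another early beta-like gene, was above it on 1 tail-suspension array. No probe bore the name Hbb-bt.

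Alas2 controls the rate of haem synthesis in red cell precursors. Its probe lay at chrX:147004993-147005052 on the plus strand of mm9. The level was 3.50, 2.63 and 2.63 in sham and 0.49, 2.38 and 1.04 in tail-suspended hearts. The pattern over the arrays was that of the globins, with tail-suspension replicate 1 lowest and replicate 2 close to the sham arrays. The log2 fold change was −1.62 (SE 0.50, 95% interval −2.80 to −0.44), a 3.08-fold lower mean, with an adjusted p of 0.0619. Fech, which acts at the last step of haem synthesis in every cell type that makes haem, gave 5.71, 5.65 and 5.41 in sham and 5.06, 5.32 and 4.99 in tail-suspended hearts. The groups did not overlap, and both were narrow, with SDs of 0.160 and 0.176. Fech fell by 0.47 on the log2 scale (SE 0.13, 95% interval −0.78 to −0.16), a 1.39-fold lower mean, with an adjusted p of 0.0477. That call was lost without sham replicate 1 (adjusted p 0.134), sham replicate 2 (0.144), tail-suspension replicate 1 (0.122) or tail-suspension replicate 3 (0.137).

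Slc4a1 was dim, though well above background on all 6 arrays. Its probe lay at chr11:102210256-102210315 on the minus strand of mm9. The level was −0.94, −1.88 and −2.03 in sham and −1.68, −1.62 and −2.11 in tail-suspended hearts. The groups overlapped, since sham replicate 1 stood above the other 5 arrays and those 5 were mixed. The log2 fold change was −0.19 (SE 0.30, 95% interval −0.91 to 0.53), with an adjusted p of 0.675 by limma and an exact permutation p of 0.8. Without sham replicate 1 it was 0.15. Bpgm, at chr6:34454792-34454851 on the plus strand of mm9, gave 2.50, 2.08 and 1.97 in sham and 1.65, 1.80 and 1.51 in tail-suspended hearts. Its groups did not overlap, and tail-suspension replicate 2 was again the highest of its group. The log2 fold change was −0.53 (SE 0.16, 95% interval −0.91 to −0.15), a 1.45-fold lower mean, with an adjusted p of 0.0592.

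**Figure D2:**
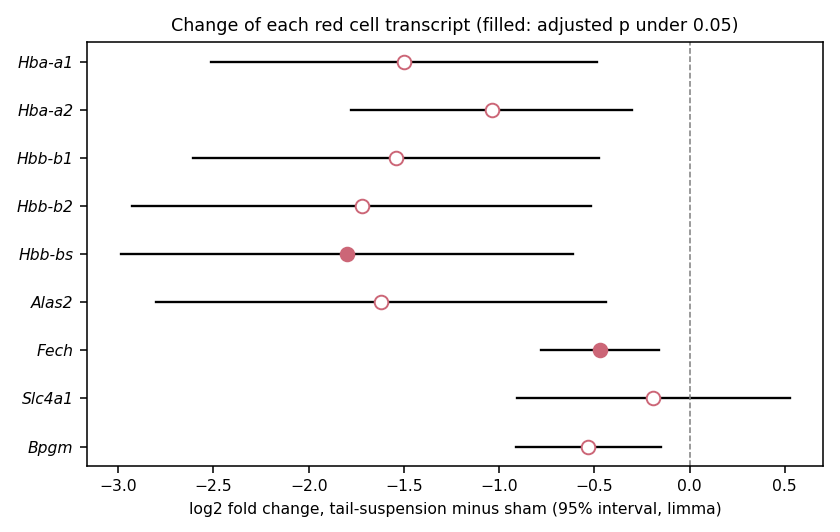
Log2 fold change of tail-suspension over sham for the 8 genes and for Hbb-bs, with 95% intervals from limma (3 arrays per group). Filled circles mark an adjusted p under 0.05, which Hbb-bs and Fech reached, and only the interval of Slc4a1 includes 0.

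The 8 genes fell into a steep and a shallow set. The 4 globins and Alas2 had log2 fold changes between −1.72 and −1.04, and Bpgm, Fech and Slc4a1 between −0.53 and −0.19. To compare genes within an array, the mean of the 4 globin probes was subtracted from each of the other 4 genes, and the change of that difference between groups was tested with an exact two-sided permutation test over the 6 arrays. The difference changed by −0.17 for Alas2 (exact p = 0.3), with overlapping groups. It changed by 0.98 for Fech, 1.26 for Slc4a1 and 0.92 for Bpgm. Each of these had an exact p of 0.1, the smallest this design allows, and 0.133 after adjustment over the 4 comparisons. Leaving out tail-suspension replicate 2 raised the 3 values to 1.35, 1.63 and 1.31. The 2 alpha globins minus the 2 beta globins changed by 0.36 (exact p = 0.2). With a smallest possible p of 0.1, this test could not have passed at 0.05 whatever the values.

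The globins and Alas2 varied more between the 3 tail-suspended hearts than most genes did, and apart from Hba-a2 they also varied more than most genes between the sham hearts. The mean level of the 4 globin probes was 7.97, 7.42 and 7.34 in sham hearts and 5.39, 7.06 and 5.93 in tail-suspended hearts. Against the sham mean, replicate 1 was 4.57-fold lower, replicate 3 was 3.13-fold lower, and replicate 2 was 1.43-fold lower. The SD among tail-suspended hearts lay between 0.663 and 1.02 for the globins and Alas2, at percentiles 97.6 to 99.4 of all tested probes, whose median SD was 0.145. For Fech and Bpgm it was 0.176 and 0.144, near that median. In sham hearts the SD of the 8 genes ran from 0.105 to 0.590. There it lay at percentiles 91.2 to 96.9 of all tested probes for Hba-a1, Hbb-b1, Hbb-b2 and Alas2, at 98.1 for Slc4a1 and at 38 for Hba-a2.

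How many of the 8 genes passed changed with the arrays that were included, and also, with all 6 arrays kept, with the processing, from 0 by several settings to 7 with array weights. Without tail-suspension replicate 2, 6 genes were lower at the adjusted threshold, where 9.64% of all tested probes were. These were the 4 globins, Alas2 and Fech, with log2 fold changes of −1.98 for Hba-a1, −1.39 for Hba-a2, −2.02 for Hbb-b1, −2.29 for Hbb-b2, −2.16 for Alas2 and −0.57 for Fech. Without sham replicate 3, 1 gene passed, Fech, where 6.96% of tested probes were called lower. None passed without sham replicate 1, sham replicate 2, tail-suspension replicate 1 or tail-suspension replicate 3, where 3.83%, 2.67%, 5.2% and 3.33% of tested probes did. When slide row was used as a block, the fold change rested on the first row alone, in which tail-suspension replicate 1 was set against the 3 sham hearts. There the values were −2.25 for Hba-a1, −1.65 for Hba-a2, −2.30 for Hbb-b1, −2.58 for Hbb-b2 and −2.43 for Alas2, and none of the 8 passed, where 0.631% of tested probes were called lower. The second row held no sham array, so it gives no value of its own.

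**Figure D3:**
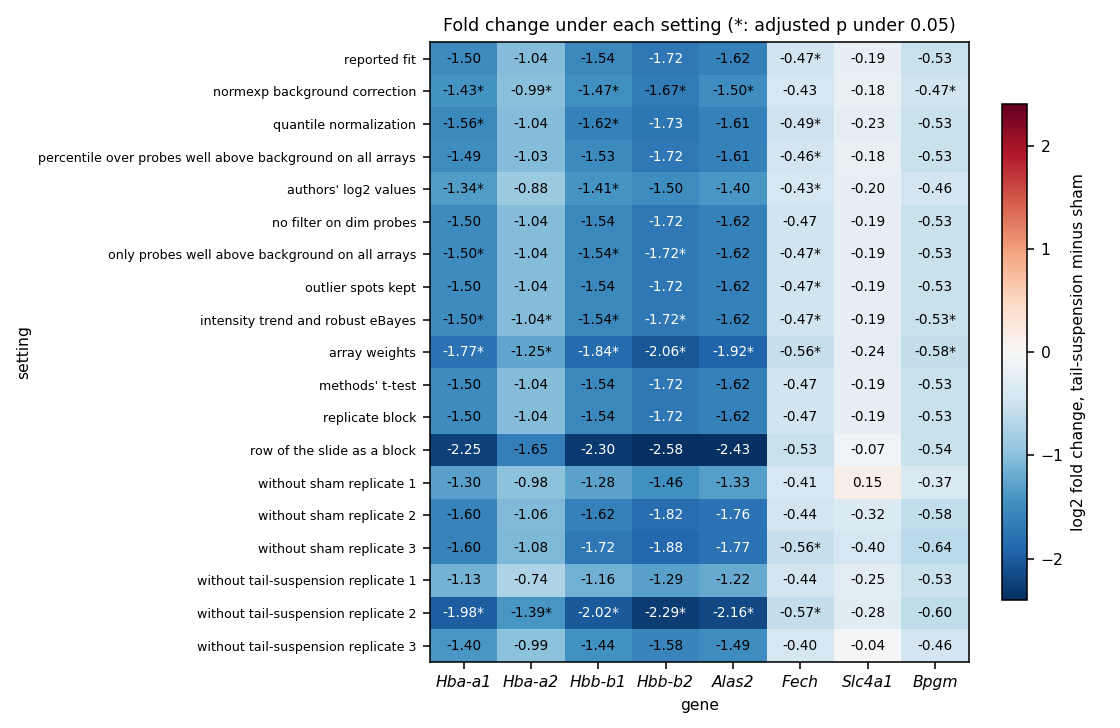
Log2 fold change of each of the 8 genes (columns) in the reported fit and under 18 other settings (rows), with color from blue for lower to red for higher in tail-suspended hearts and an asterisk for an adjusted p under 0.05. All values were below 0 except that of Slc4a1 without sham replicate 1, whereas the asterisks came and went with the setting and were most frequent with array weights, where 7 of 8 genes and 15.5% of tested probes were called lower.

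The upstream sequences of the globin genes and Alas2 are shown because these genes had alike values over the 6 arrays. The windows are the 120 bases before the annotated gene start, read from the RefSeq promoter table on GRCm38.p6 and written 5′ to 3′ on the strand of the gene, with motif matches in capitals. Hba-a1 lies at chr11:32283552-32283671 on the plus strand, Hbb-bs at chr7:103827929-103828048 and Hbb-bt at chr7:103813924-103814043 on the minus strand, and Alas2 at chrX:150547297-150547416 on the plus strand.
Hba-a1: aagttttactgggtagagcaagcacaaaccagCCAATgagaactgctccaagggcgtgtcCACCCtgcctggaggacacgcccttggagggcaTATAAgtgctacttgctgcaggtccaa
Hbb-bs: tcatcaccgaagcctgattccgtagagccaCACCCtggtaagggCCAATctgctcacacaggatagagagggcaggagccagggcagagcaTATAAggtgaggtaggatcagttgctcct
Hbb-bt: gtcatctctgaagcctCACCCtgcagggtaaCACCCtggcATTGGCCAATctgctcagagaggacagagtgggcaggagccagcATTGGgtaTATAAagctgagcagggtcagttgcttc
Alas2: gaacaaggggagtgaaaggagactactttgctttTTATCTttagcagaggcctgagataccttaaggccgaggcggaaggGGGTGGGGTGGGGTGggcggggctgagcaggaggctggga

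Capitals mark CACCC, known to be bound by KLF1, on either strand. They also mark CCAAT, a common promoter motif, on either strand, and TATAA on the strand of the gene. The GATA-type motif, searched on either strand, was GATA with A or T before it and A or G after it, the letters that GATA factors bind. No base belonged to more than 1 motif. The promoter table holds Hba-a1, Hba-a2, Hbb-bs, Hbb-bt, Alas2 and Bpgm. The windows of Hba-a1 and Hba-a2 were identical over 297 bases. In the 250 bases before the start, CACCC was present in all 5 globin and Alas2 windows, compared with 52.0% of all 32851 promoters, and TATAA in all 5, compared with 16.0%. CCAAT was in the 4 globin windows and not in that of Alas2 (33.8% of all promoters), and a GATA-type motif was in the windows of Hba-a1, Hba-a2, Hbb-bs and Alas2 and not in that of Hbb-bt (26.5%). The 250 bases of Bpgm held 3 CCAAT matches and none of the other motifs. In the 120 bases nearest the start, a GATA-type motif was only in the Alas2 window (12.8% of all promoters). TATAA was there in the 4 globin windows and not in that of Alas2 (8.5%). These matches describe letters only. Of the erythroid factors known to bind such motifs, Gata1 was well above background on 1 tail-suspension array and Klf1 on none.

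Around the 8 genes, most other genes of haem synthesis and of iron supply had fold changes below 0, some of them small. The median over all tested genes was also below 0, at −0.025. Of the 7 other haem synthesis genes, all tested, 1 fell and none rose, where 11.2% of tested genes were called lower and 10.5% higher. These 2 shares are the background for the count of every list below. The median log2 fold change of the 7 was −0.26. The gene that passed was Uros, which encodes uroporphyrinogen III synthase, with −0.57 (SE 0.13, adjusted p 0.0264). Alas1, the form of the first enzyme used outside red cells, had −0.91 (SE 0.29, adjusted p 0.0698), with its lowest value in tail-suspension replicate 2. The count was 2 without tail-suspension replicate 2 and 0 without sham replicate 1, sham replicate 2 or tail-suspension replicate 3.

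Among 7 genes of erythroid iron and haem transport, 3 fell and none rose, with a median of −0.46. Tfrc, the transferrin receptor that brings iron into cells, read 2.16, 2.35 and 2.16 in sham and 1.02, −1.19 and −0.24 in tail-suspended hearts. Here replicate 2 was the lowest of the tail-suspended hearts, where the globins had it as the highest of that group. Tfrc fell by 2.36 (SE 0.50, adjusted p 0.0243). Abcb10, a mitochondrial transporter needed for haem synthesis, fell by 0.48 (SE 0.12, adjusted p 0.0336), and Tmem14c, which carries porphyrins across the inner mitochondrial membrane, by 0.46 (SE 0.12, adjusted p 0.0398). Slc25a37, the mitochondrial iron importer mitoferrin of red cell precursors, had −0.10 (SE 0.15, adjusted p 0.659). The count of 3 became 2 without sham replicate 3, 1 without tail-suspension replicate 1 or 2, and 0 without any of the other 3 arrays.

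Genes of the red cell membrane and its skeleton moved in both directions. Of 15, 10 were tested, of which 2 rose and 3 fell, with a median of 0.12. Rhd, which encodes a Rh blood group protein, rose by 0.84 (SE 0.15, adjusted p 0.0155), and Sptb, beta spectrin, by 0.52 (SE 0.12, adjusted p 0.0294). Among those that fell, Gypc, glycophorin C, was lower by 0.49 (SE 0.11, adjusted p 0.0253) and Xk, a blood group membrane protein, fell by 0.64 (SE 0.13, adjusted p 0.0213). The defining red cell markers Epb42, Add2, Rhag and Kel did not rise clearly above background on a single array. The count of genes that fell was 0 without sham replicate 1 or 2 and 1 without tail-suspension replicate 1 or 3, and that of genes that rose was 1 without sham replicate 2, sham replicate 3 or tail-suspension replicate 3.

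Of 12 tested genes of the red cell cytosol and reticulocytes, out of 15, none passed in limma, 1 was higher and 2 lower at an unadjusted p under 0.05, and their median was 0.022. Ahsp, which encodes the chaperone of free alpha globin, had 0.69 (SE 0.74, adjusted p 0.529). Prdx2, a peroxidase abundant in red cells, had −0.14 (SE 0.09, adjusted p 0.287), and Bnip3l, which clears mitochondria from reticulocytes, 0.07 (SE 0.09, adjusted p 0.584). Without tail-suspension replicate 2, 1 gene of the list was lower. Of 7 genes for erythroid transcription factors and the erythropoietin receptor, 4 were tested and none passed in limma, with 1 higher and 1 lower at an unadjusted p under 0.05 and a median of −0.13. Without sham replicate 1, 1 of them was higher, and without sham replicate 3, 1 was lower. Tal1 had 0.02 (SE 0.08) and Epor −0.37 (SE 0.14, adjusted p 0.0966).

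**Figure D4:**
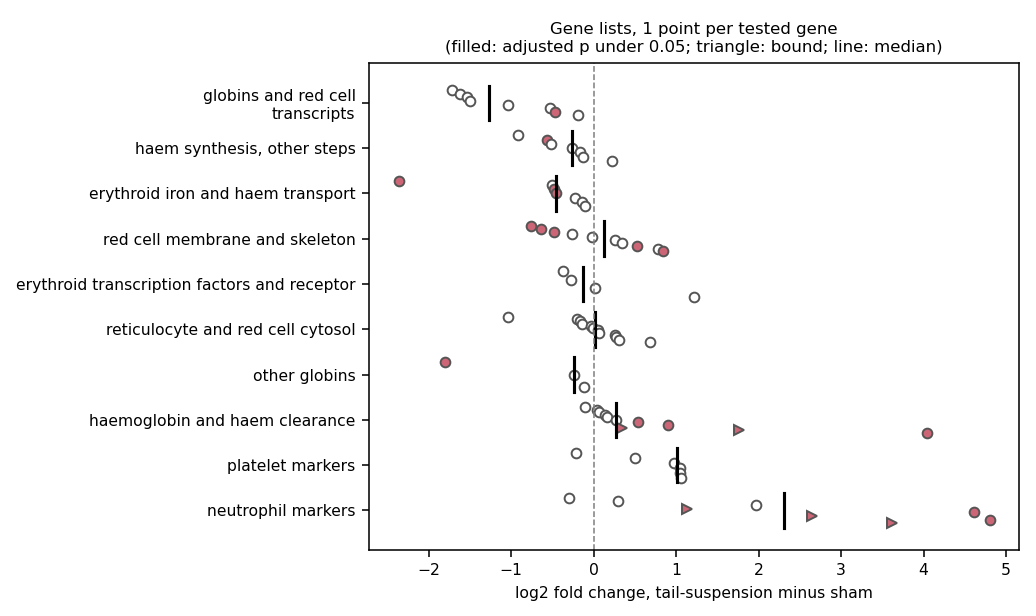
Log2 fold change of tail-suspension over sham for each tested gene, by list. Circles are fitted values, triangles are lower bounds for genes that no sham array detected well above background, filled marks have an adjusted p under 0.05, and black lines are medians with such genes at their bound. The globin and red cell genes have a median of −1.27, the other red cell lists lie between −0.46 and 0.12, and the neutrophil markers at 2.31.

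Among 11 genes that clear free haemoglobin and haem, all tested, 5 rose and none fell, where 10.5% of tested genes were called higher. The other 6 did not pass, and the list median was 0.27. Hp encodes haptoglobin, which binds free haemoglobin in plasma and is also stored in neutrophil granules. It read −1.78, −2.40 and −2.77 in sham and 2.87, 0.84 and 1.47 in tail-suspended hearts, with no overlap, and rose by 4.04 (SE 0.52, adjusted p 0.00610). Hmox1, haem oxygenase 1, which breaks down haem, rose by 0.90 (SE 0.19, adjusted p 0.0223), and Ftl1, the ferritin light chain that stores iron, by 0.54 (SE 0.12, adjusted p 0.0260). The value of Hmox1 is from the brighter of its 2 tested probes, and the median over both was 0.56. For the haptoglobin-haemoglobin receptor Cd163 and the haem-binding protein Hpx, which no sham array showed well above background, bounds are given. Both entered the test through the tail-suspension arrays alone, so the filter favored a call of higher. Hp, Hmox1 and Ftl1 were well above background on every array. The adjusted p of Cd163 and Hpx are from the fit on measured values, not on the bounds. Cd163 was at least 3.39-fold higher (adjusted p 0.0240) and Hpx at least 1.27-fold higher (adjusted p 0.00910), the mean of the tail-suspension arrays being set against the lowest signal well above background on each sham array, or the probe's own signal where that was higher. The count of 5 fell to 3 without sham replicate 1 or 2 and to 2 without tail-suspension replicate 3. Hp passed in each fit that left out an array.

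Most tested markers of neutrophils, another blood cell, were higher in tail-suspended hearts. Their mean level put the 3 animals in the order opposite to that of the globins, though not every marker did. Of 10 neutrophil markers 8 were tested, of which 5 rose and none fell, against the 10.5% of tested genes called higher. At an unadjusted limma p under 0.05, 7 were higher and 1 lower. The lower one was Elane, with −0.30 (SE 0.095, adjusted p 0.0674). Csf3r had 0.30 (SE 0.11, adjusted p 0.0927), with tail-suspension replicate 2 the highest of its group, as in the globins. Its probe was bright in sham hearts, at 7.15, 7.36 and 7.41, and which cells gave that signal was not tested. The mean level of the 8 lay between −2.32 and −2.01 in sham hearts and was 1.76, −0.014 and 0.68 in tail-suspension replicates 1, 2 and 3. S100a8, a calcium-binding protein of neutrophils, read −2.54, −2.88 and −3.38 in sham and 3.31, 0.55 and 1.75 in tail-suspended hearts, and rose by 4.80 (SE 0.65, adjusted p 0.00705). S100a9, its partner, rose by 4.62 (SE 0.61, adjusted p 0.00661). Retnlg, Ltf and Mpo, which no sham array showed well above background, were at least 12.3-fold, 6.26-fold and 2.20-fold higher. Ngp and Cxcr2 reached that level on 2 tail-suspension arrays and no sham array. The array lowest in globins, tail-suspension replicate 1, was the highest in S100a8 and Hp, and tail-suspension replicate 2 was the highest in globins and the lowest in S100a8 and Hp within its group. The part of the neutrophil markers in the globin values was not tested.

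**Figure D5:**
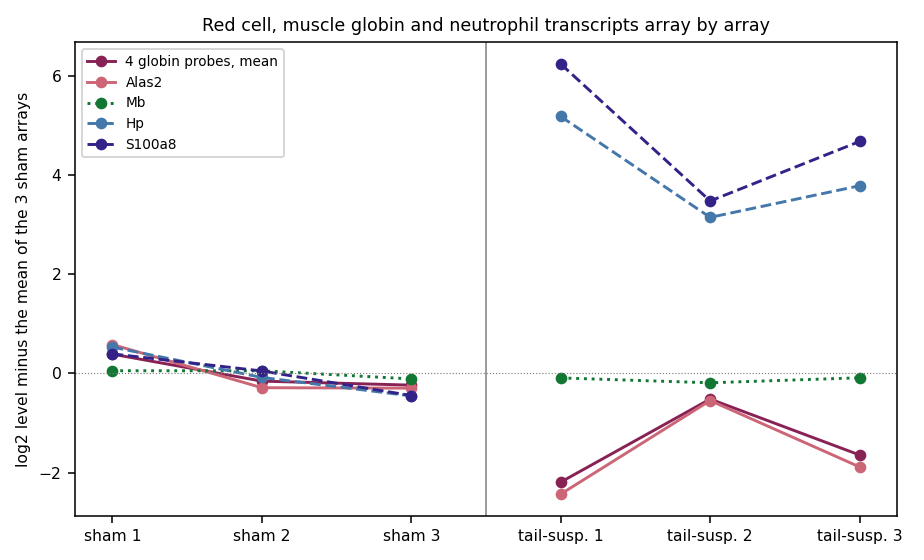
Log2 level on each array minus the mean of the 3 sham arrays, for the mean of the 4 globin probes, Alas2, Mb, Hp and S100a8. Lines join the points of a gene within a group and imply no order of the animals. Over the tail-suspension arrays the globins and Alas2 are highest in replicate 2, Hp and S100a8 are lowest there, and Mb stays near the sham mean, with its lowest value at −0.19.

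Among the markers of the remaining cell types, 4 endothelial, 2 B cell, 1 cardiomyocyte and 1 fibroblast marker were lower. None was higher in limma, while 3 platelet markers and 1 fibroblast marker were at an unadjusted p under 0.05. The single calls among 8 cardiomyocyte and 7 fibroblast markers are near the 11.2% of all tested genes called lower. Of 10 platelet markers 6 were tested and none passed in limma, with 3 higher at an unadjusted p under 0.05 and a median of 1.01, and 5 passed without tail-suspension replicate 2. Their mean level was −0.811, −1.855 and −0.985 in tail-suspension replicates 1, 2 and 3, in the order of the neutrophil mean. Of 6 B cell markers 4 were tested and 2 fell, among them Cd79a, by 0.86 (SE 0.17, adjusted p 0.0196). The B cell count was 1 without sham replicate 1, tail-suspension replicate 1 or tail-suspension replicate 3. Neither of the 2 tested T cell markers passed in limma, and 1 was lower at an unadjusted p under 0.05. Of 8 cardiomyocyte markers 1 fell, Actc1, by 0.33 (SE 0.08, adjusted p 0.0364), and their mean level varied between 8.62 and 8.82 over the 6 arrays. The call of Actc1 was lost in each fit that left out an array. Myh6 was read from the brighter of its 2 tested probes, with −0.09, while the median over both was −0.78. Of 7 endothelial markers 4 fell, with a median of −0.31. The endothelial count was 0 without sham replicate 1 or 2, 1 without sham replicate 3 or tail-suspension replicate 3, and 2 without tail-suspension replicate 1 or 2. Of 7 fibroblast markers 1 fell, Col3a1, by 1.88 (SE 0.36, adjusted p 0.0177), with a list median of −0.63. The fibroblast count was 0 without sham replicate 2 or tail-suspension replicate 1 and 2 without tail-suspension replicate 3. The part of these cell types in the red cell values was not tested.

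The genes most like the globins over the 6 arrays included other globin sequences. Likeness was measured as the root-mean-square difference, over the 6 arrays, between the centred log2 level of a gene and that of the globin mean, among 14134 genes. It uses the same arrays as the comparison above, so it is a description. Only 6 genes differed by less than 0.25 and 120 by less than 0.5. The nearest was Tent5c (0.181), which encodes a poly(A) polymerase, followed by Cd83 (0.213), an immune cell surface protein, and Hbb-bs (0.213). Then came Zdhhc22 (0.230), the alpha globin pseudogene Hba-ps4 (0.241), whose probe may also bind alpha globin transcripts, which was not tested, Wfdc13 (0.246), Gbp4 (0.250), an interferon-induced GTPase, Urah (0.263) and Rarres1 (0.281). Their log2 fold changes ran from −1.88 for Zdhhc22 to −1.09 for Urah. By the same measure Alas2 stood at 0.149, while Bpgm was at 0.638, Fech at 0.655 and Slc4a1 at 0.798.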

How the data were processed

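Total RNA of 3 sham and 3 tail-suspended hearts was labeled in 1 color and hybridized to Agilent arrays. Per the submitters' processing notes, the authors extracted the spots with Agilent Feature Extraction 10.7.1.1, and they deposited each array's intensity values, including a background-corrected processed intensity. They also deposited log2 values of the same arrays, which correlated above 0.999 with the processed intensity. Their sorted columns differed by at most 0.117, and how they were normalized is not given in the sources used here.

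In R 4.3.3, control and outlier spots were dropped and each array's log2 processed intensity was scaled to its 75th percentile (302 to 376 intensity units). A probe was tested where all arrays of either group showed it well above background, in at least 50% of its spots. Tests used limma 3.58.1 without covariates. A probe keeps the name of the array design. The RefSeq table of GRCm38.p6 held a symbol or unique synonym for 21911 of 36163 names. A gene of a list was read from its brightest tested probe. Named are the 8 genes, genes of the lists, and the 10 genes most like the globin mean, of which some are not reported here.

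The genes and lists were chosen with earlier results of these data known. Replicates are separate mice, per the design, and their number limits the precision. On data simulated for tail-suspension against sham (28003 probes), 77.5% of 200 changed probes were called, 95% of those changed by 2 and 60% of those changed by 1 on the log2 scale, as were 10 unchanged probes. The changed probes were drawn at random from the 28003. These shares thus need not hold for genes as variable as the globins and Alas2. The alternatives changed the background (normexp, offset 50), the scaling (quantile, or a percentile over detected probes), the source (the authors' log2 values), the filter (none, or stricter), the outlier spots (kept), the variance model (intensity trend with robust moderation, or weights per array) and the test (the methods' t-test). Others used replicate number or slide row as a block, a 2-fold minimum, another way to choose a gene's probe, or 5 arrays in place of 6. Counts of list genes without each array, and list medians at bounds, were added after seeing the data. No protein sequences and no mm9 annotation were used here.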

Additional observations from a re-analysis of the deposited data

How the results depend on the processing

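Across 18 alternatives the log2 fold changes of Hba-a1, Hba-a2, Hbb-b1, Hbb-b2, Alas2, Fech and Bpgm stayed below 0, but their side of the adjusted threshold did not hold, and the cause was not tested. Of the 8 genes, 1 was lower in the reported fit, 6 with normexp background correction, 3 with quantile normalization, 3 with the authors' log2 values, 4 with only probes well above background on all arrays, 6 with an intensity trend, 7 with array weights, and 0 with no filter, the methods' t-test, the replicate block, the slide row as a block or a 2-fold minimum. Leaving out an array gave 0 to 6 genes. By the methods' t-test at an unadjusted p under 0.05, 3 genes were lower.

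Newly past the threshold were, with normexp, Hba-a1 (−1.43), Hba-a2 (−0.99), Hbb-b1 (−1.47), Hbb-b2 (−1.67), Alas2 (−1.50) and Bpgm (−0.47), with quantile normalization Hba-a1 (−1.56) and Hbb-b1 (−1.62), and with the authors' values Hba-a1 (−1.34) and Hbb-b1 (−1.41). With the stricter filter they were Hba-a1 (−1.50), Hbb-b1 (−1.54) and Hbb-b2 (−1.72). The intensity trend added Hba-a1 (−1.50), Hba-a2 (−1.04), Hbb-b1 (−1.54), Hbb-b2 (−1.72) and Bpgm (−0.53). Array weights, lowest at 0.449 for tail-suspension replicate 2, added Hba-a1 (−1.77), Hba-a2 (−1.25), Hbb-b1 (−1.84), Hbb-b2 (−2.06), Alas2 (−1.92) and Bpgm (−0.58). Fech lost its call with normexp (−0.43), and, at −0.47 throughout, with no filter (adjusted p 0.137), the methods' t-test (0.105) and the replicate block (0.0620), and with the slide row as a block (−0.53, adjusted p 0.211). Without 1 array the log2 fold changes ranged from −1.98 to −1.13 for Hba-a1, −1.39 to −0.74 for Hba-a2, −2.02 to −1.16 for Hbb-b1, −2.29 to −1.29 for Hbb-b2, −2.16 to −1.22 for Alas2, −0.57 to −0.40 for Fech, −0.64 to −0.37 for Bpgm, and −0.40 to 0.15 for Slc4a1, which was reversed at 0.15 without sham replicate 1.

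Over all probes, 3023 were higher and 2683 lower in the reported fit. The counts were 1041 and 790 with no filter, 1532 and 1248 by the methods' t-test, 1714 and 1403 with the replicate block, 320 and 177 with the slide row as a block, 757 and 460 with a 2-fold minimum, and 4465 and 4355 with array weights. Without 1 array they ranged from 1008 to 2885 and from 749 to 2701. Deviations of same-numbered samples from their group means had correlations of −0.02, −0.0176 and 0.0495, so no pairing was seen over all tested probes. A pairing limited to some genes was not tested. Reading each gene as the median of its probes moved the medians of the other haem synthesis genes to −0.33, the red cell membrane genes to 0.008 and the cardiomyocyte markers to −0.15. Of the lists in which no gene passed in limma, the methods' t-test called 1 gene of the red cell cytosol list higher after adjustment and none of the other lists.

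Signal over background limits Ahsp, which was well above it on 2 sham and 3 tail-suspension arrays, and Rhag, Epb42 and Klf1, which were above it on none and have only an upper bound. In bulk tissue with 3 animals per group, blood content was not measured.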
